A study of Mus musculus with 8 samples.

Results

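The transcripts described here encode insulin-like growth factor 1 (IGF1) and the proteins that carry it or bind its relative IGF2: Igf1, Igfals, Igfbp1, Igfbp2, Igfbp3, Igfbp4, Igfbp7 and Igf2r. All probes carrying one of these 8 gene symbols in the platform annotation were taken, which gave 12 of the 25697 probes in the deposited table. The table as a whole names 16593 genes. Liver RNA came from 8 C3HeB/FeJ males aged 21 weeks, each hybridised to its own bead array. A group of 4 mice was wild type, and the other 4 were heterozygous for Jag1K295*, an allele in which a lysine codon of the Notch ligand gene Jag1 is replaced by a stop codon, carried on the same strain background. Sample titles abbreviate this group as hom, while the genotype label and the design text give it as heterozygous, which is followed here. The study title concerns Alagille syndrome, a disease with sparse bile ducts and often poor growth, and the comparison made here is whether the hepatic IGF transcripts differ between the genotypes.

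The liver is the main source of circulating IGF1, whose gene is switched on by growth hormone through its receptor, the kinase JAK2 and the transcription factor STAT5. Most IGF1 in blood travels in a ternary complex with IGFBP3 or IGFBP5 and the acid-labile subunit, the product of Igfals, which is also made by hepatocytes under growth hormone control. The smaller binding proteins IGFBP1, IGFBP2 and IGFBP4 form binary complexes that limit access of IGF1 to its receptor. Insulin represses Igfbp1 in hepatocytes, so that its transcript rises in fasting. IGF2R, the cation-independent mannose 6-phosphate receptor, takes up IGF2 for breakdown and carries lysosomal enzymes.

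Sequences upstream of 3 of these genes are shown because they carry, or lack, the elements through which insulin and growth hormone are known to reach the family. They are the 250 bases before an annotated start in RefSeq, build GRCm38.p6, on the plus strand, and are credited to that table. All 8 genes had an entry, with 11 starts among them. Capitals mark the insulin response letters CAAAACAA and TTATTTTG in Igfbp1 and the STAT letters TTCNNNGAA in Igfals. Both strands were searched, and none of these matches overlapped another.
Igfbp1, chr11:7197537-7197786: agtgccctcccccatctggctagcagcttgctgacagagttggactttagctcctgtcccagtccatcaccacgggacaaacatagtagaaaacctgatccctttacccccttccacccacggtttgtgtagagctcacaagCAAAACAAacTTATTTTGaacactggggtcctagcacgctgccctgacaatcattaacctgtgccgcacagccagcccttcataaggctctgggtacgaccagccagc
Igfals, second of 3 starts, chr17:24877981-24878230: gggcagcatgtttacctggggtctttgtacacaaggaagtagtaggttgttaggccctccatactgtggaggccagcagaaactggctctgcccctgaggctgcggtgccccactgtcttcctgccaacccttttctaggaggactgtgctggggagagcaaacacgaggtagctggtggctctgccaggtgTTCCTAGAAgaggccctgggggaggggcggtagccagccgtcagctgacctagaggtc
Igfbp2, first of 2 starts, chr1:72824230-72824479: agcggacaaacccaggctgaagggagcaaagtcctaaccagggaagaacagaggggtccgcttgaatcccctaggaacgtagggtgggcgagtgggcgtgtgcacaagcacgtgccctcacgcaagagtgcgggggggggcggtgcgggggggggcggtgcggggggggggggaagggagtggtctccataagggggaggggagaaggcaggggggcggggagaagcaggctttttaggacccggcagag
In Igfbp1 the first insulin response match lay 108 to 101 bases and the second 98 to 91 bases before the start, facing each other. These matches are a description of letters and were not tested as binding sites. The letters CAAAACAA were found in 2.21% and TTATTTTG in 1.49% of the 32851 windows of this length in the table, and among the 11 windows of these genes each was found in Igfbp1 alone. The STAT letters were found in 7.02% of all windows and in 2 of the 11, both upstream of Igfals. The match shown, TTCCTAGAA, lay 58 to 50 bases before the second start, and TTCTCAGAA lay 236 to 228 bases before the first. The Igfbp2 window held neither, and 67.2% of its bases were G or C, against 53.2% in Igfbp1. In the annotation Igfbp1 and Igfbp3 are adjacent protein-coding genes on chromosome 11, and Igfbp2 and Igfbp5 are adjacent on chromosome 1.

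A probe was tested when its detection p-value, the authors' measure of a signal above the negative control beads, fell below 0.05 for 4 arrays or more. Of the 12 probes, 10 passed and covered 7 of the 8 genes. The probe of Igfbp1 and the dimmer probe of Igfbp7 did not pass. Before normalization, mean signals were 438, 468, 488 and 473 on the wild-type arrays, against 425, 422, 453 and 443 on the heterozygous ones. Between 11022 and 11873 probes per array had a detection p-value under 0.05. Heterozygous replicate 4 stood apart on the first principal component, at 24.3 where the other arrays lay between -12.2 and 6.90. The Jag1 probe was at background on every array (signals 111 to 123, detected on 0 of 8), which gives no check on the genotype labels. Liver identity was checked by hepatocyte markers: 5 of 6 were tested, with transthyretin (Ttr) at a mean log2 signal of 14.3 in wild type, while the Alb probe did not pass the detection filter.

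None of the 10 tested probes passed the threshold, an adjusted p under 0.05 in limma's two-sided test with Benjamini-Hochberg adjustment over all 11412 tested probes. That count of 0 stands beside 0.00876% of all tested probes, which was 1 probe. At an unadjusted p under 0.05 there was 1 member probe, the brighter one of Igfbp2, against 11.2% of all tested probes. For 1 of the 10, the dimmer probe of Igf2r, the 4 heterozygous arrays did not overlap the 4 wild-type arrays, where 6.25% of all tested probes had no overlap. Log2 fold changes, heterozygous minus wild type, were above 0 for 8 of the 10 probes and for 6 with median scaling of the arrays. Of all tested probes 51.9% were above 0, and 3 of the genes have a pair of probes among the 10. The median of the 10 was 0.10, and that of all tested probes was 0.0063. Signals are given as background-corrected, quantile-normalized log2 values, and levels of different probes are not compared, since each probe has its own response.

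Igf1, the hormone gene itself, was bright on every array and nearly level across the mice. Its log2 signals were 12.93, 12.95, 12.92 and 12.84 on the wild-type arrays, against 13.03, 13.02, 12.83 and 13.14 on the heterozygous ones. Heterozygous replicate 3 was the lowest array of all and heterozygous replicate 4 the highest, so the groups overlapped. The group means were 12.91 ± 0.05 (SD, n = 4) and 13.01 ± 0.13 (SD, n = 4), differing by 0.10 ± 0.08 on the log2 scale (SE; limma adjusted p = 0.706). The fold was 1.07 with a 95% interval from 0.938 to 1.22, which leaves folds beyond those bounds outside it. Over all 8 arrays the highest Igf1 value was 1.24 times the lowest, and 19.5% of tested probes had a smaller standard deviation over the arrays.

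Igfals, encoding the acid-labile subunit that keeps the ternary complex in blood, gave a similar picture. Its log2 signals were 11.69, 11.85, 11.90 and 11.88 on the wild-type arrays, against 11.94, 12.02, 11.69 and 12.24 on the heterozygous ones. Again heterozygous replicate 4 was highest, and 3 of the 4 heterozygous arrays lay above all wild-type arrays while replicate 3 lay among the lowest. The means were 11.83 ± 0.10 (SD, n = 4) and 11.97 ± 0.22 (SD, n = 4), differing by 0.14 ± 0.11 on the log2 scale (SE; limma adjusted p = 0.674), and the 95% interval of the fold ran from 0.925 to 1.31. Single arrays moved these values both ways. Without heterozygous replicate 4 the log2 fold change was 0.05 for Igfals and 0.05 for Igf1, and without heterozygous replicate 3 it was 0.23 for Igfals and 0.15 for Igf1. With median scaling it was 0.0558 for Igfals and 0.0346 for Igf1, and neither gene passed in any of these settings. Of the 5 tested hepatocyte markers 0 passed, 2 above and 3 below 0, with a median log2 fold change of -0.01. Ttr and Serpina1c were lower in heterozygous liver without overlap (-0.10 and -0.09), where 6.25% of all tested probes had no overlap. The part of the hepatocyte markers in the Igf1 and Igfals values was not tested.

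Igfbp2, which binds IGF1 and IGF2 and is made by hepatocytes, varied more than any other tested member. Its brighter probe read 11.47, 10.90, 10.79 and 11.60 on the wild-type arrays, against 11.61, 11.37, 11.84 and 12.57 on the heterozygous ones on the log2 scale. In wild type, replicates 2 and 3 were low and replicates 1 and 4 higher, and 3 of 4 heterozygous arrays lay above the highest wild-type array, with heterozygous replicate 1 barely above it. The means were 11.19 ± 0.40 (SD, n = 4) and 11.84 ± 0.52 (SD, n = 4). The log2 fold change was 0.66 ± 0.26 (SE; limma unadjusted p = 0.0281, adjusted p = 0.40), a fold of 1.58 with a 95% interval from 1.06 to 2.35 before any adjustment for the number of probes. The exact permutation test, two-sided and with 70 possible assignments, gave p = 0.114.

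The dimmer Igfbp2 probe read 11.27, 10.79, 10.70 and 11.26 on the wild-type arrays, against 11.46, 10.96, 11.43 and 12.27 on the heterozygous ones on the log2 scale. Its log2 fold change was 0.53 ± 0.25 (SE; limma adjusted p = 0.46). Heterozygous replicate 4 was again far the highest and heterozygous replicate 2 lay below wild-type replicates 1 and 4. Over the 8 arrays the 2 probes rose and fell together, with Pearson's r = 0.98 (exact permutation p = 0.000149, adjusted p = 0.000446 over the 3 genes with a pair of tested probes) and Spearman's rho = 0.95 (exact permutation p = 0.00114). The r was 0.91 without the 2 arrays farthest from the median and 0.97 on deviations from the group means. The highest array was 3.44 times the lowest for the brighter probe, whose standard deviation over the arrays was larger than that of 99.3% of tested probes. Without heterozygous replicate 4, the array that stood apart on the first component, the log2 fold changes were 0.42 (limma adjusted p = 0.603) and 0.28 (limma adjusted p = 0.686).

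**Figure D1:**
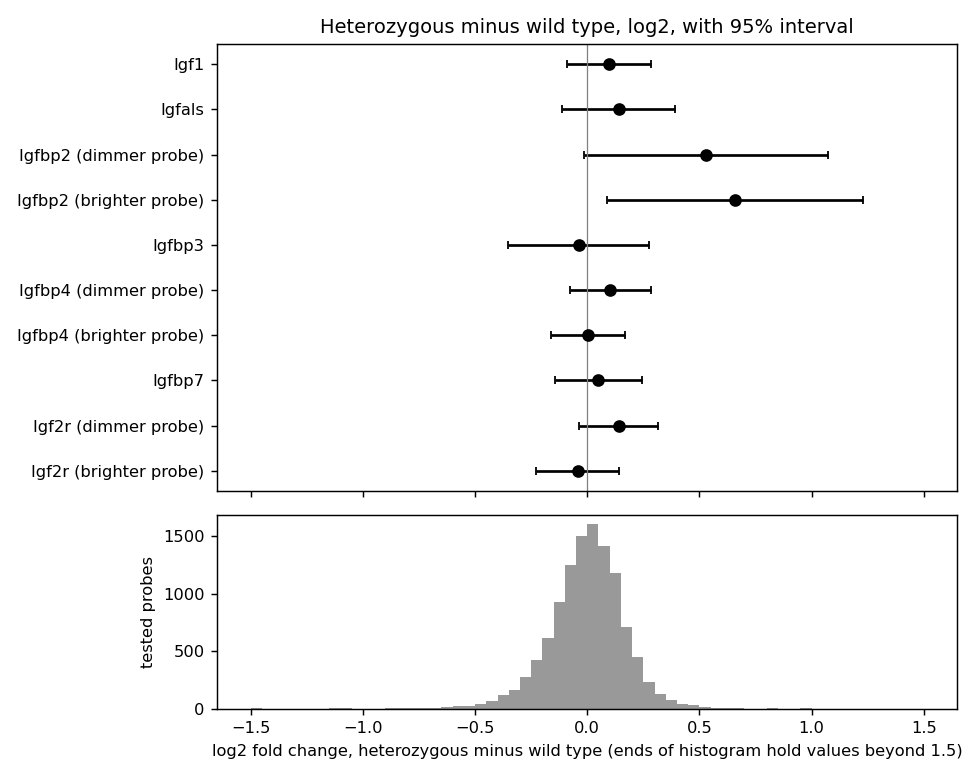
Log2 fold change, heterozygous minus wild type, of each tested member probe with its 95% interval from limma (upper panel), above a histogram of the log2 fold changes of all 11412 tested probes (lower panel). Of the 10 intervals, that of the brighter Igfbp2 probe, from 0.09 to 1.23, alone lies clear of 0, before adjustment.

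Igfbp1, the insulin-repressed binding protein, was at or near background. Its raw signals were 135.0, 129.1, 129.0 and 129.2 on the wild-type arrays, against 125.5, 127.3, 148.2 and 148.6 on the heterozygous ones. It was detected on 1 of 4 wild-type arrays (replicate 1) and on 2 of 4 heterozygous arrays (replicates 3 and 4), so it was left out of the test. The dimmer probe of Igfbp7 was detected on 0 of 8 arrays, with signals between 107 and 117.

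Igfbp3, the carrier of the ternary complex, is made in liver mostly by nonparenchymal cells. It was dim but detected on all 8 arrays, with log2 signals of 6.23, 6.44, 6.14 and 5.77 on the wild-type arrays, against 6.07, 6.10, 6.35 and 5.91 on the heterozygous ones. Replicate 4 was the lowest array in each group, and the groups overlapped over nearly their whole range. The log2 fold change was -0.04 ± 0.14 (SE; limma adjusted p = 0.941), with an interval on the fold from 0.782 to 1.21. In bulk liver, fewer cells of a type and less RNA per cell cannot be told apart. All 7 endothelial markers were tested and 0 passed, with a median log2 fold change of -0.12 and a summed signal of 3652 to 4101 in wild type and 3510 to 3992 in heterozygous liver. Of the 7 Kupffer cell and macrophage markers 6 were tested and 0 passed, with a median of -0.18 and a summed signal of 1278 to 1695 and 992 to 1466. Their part in the Igfbp3 values was not tested.

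Igfbp4, a binary carrier that inhibits IGF action, was bright on both of its probes, and its brighter probe varied least of the tested member probes. That probe read 13.61, 13.57, 13.54 and 13.63 on the wild-type arrays, against 13.59, 13.61, 13.68 and 13.48 on the heterozygous ones on the log2 scale. All 8 arrays lay within a 1.15-fold range, and only 2.43% of tested probes had a smaller standard deviation. Its log2 fold change was 0.0031 ± 0.07 (SE; limma adjusted p = 0.991), with an interval on the fold from 0.893 to 1.12, and its sign turned with median scaling (-0.06). The dimmer probe read 12.81, 12.74, 12.76 and 13.003 on the wild-type arrays, against 12.90, 12.98, 12.92 and 12.92 on the heterozygous ones, giving a log2 change of 0.10 ± 0.08 (SE; limma adjusted p = 0.667). Wild-type replicate 4 was its highest array, and the change was 0.16 without it and 0.0366 with median scaling. Over the 8 arrays the pair of probes gave Pearson's r = 0.32 (exact permutation p = 0.441) and Spearman's rho = 0.52 (exact permutation p = 0.193). The r was 0.80 without the 2 arrays farthest from the median.

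Igfbp7, a relative that binds IGFs weakly and is known from endothelial and stellate cells, was read by its brighter probe at 10.74, 10.69, 10.54 and 10.56 on the wild-type arrays, against 10.63, 10.65, 10.85 and 10.60 on the heterozygous ones on the log2 scale. Heterozygous replicate 3 was highest and the groups overlapped. The log2 fold change was 0.05 ± 0.09 (SE; limma adjusted p = 0.866), with an interval on the fold from 0.904 to 1.18. Of the 7 stellate cell and fibroblast markers 5 were tested, all 5 were below 0 and 0 passed, with a median of -0.13 and a summed signal of 2871 to 3876 in wild type and 2940 to 3154 in heterozygous liver. Of all tested probes 51.9% were above 0. The part of the stellate cell and fibroblast markers in the Igfbp7 values was not tested.

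The 2 probes of Igf2r did not give the same answer. The dimmer one read 8.36, 8.13, 8.28 and 8.34 on the wild-type arrays, against 8.44, 8.37, 8.41 and 8.46 on the heterozygous ones on the log2 scale. All 4 heterozygous arrays lay above all 4 wild-type arrays, by a narrow margin. Its log2 fold change was 0.14 ± 0.08 (SE; limma adjusted p = 0.538). The exact permutation test, two-sided, gave p = 0.0286, the smallest that 4 arrays against 4 allow. Lack of overlap alone fixes that value, so it adds nothing to the lack of overlap, which 6.25% of all tested probes showed. The groups overlapped once the arrays were scaled by their medians, and the change was 0.0898 without wild-type replicate 2. The brighter probe read 8.52, 8.54, 8.50 and 8.62 on the wild-type arrays, against 8.60, 8.32, 8.55 and 8.54 on the heterozygous ones, giving a log2 change of -0.04 ± 0.08 (SE; limma adjusted p = 0.878) and heterozygous replicate 2 lowest. Over the arrays the pair of probes gave Pearson's r = 0.07 (exact permutation p = 0.856) and Spearman's rho = 0.12 (exact permutation p = 0.793), with r = 0.43 without the 2 arrays farthest from the median.

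The balance between members was compared within each array, which cancels shifts common to an array. The log2 difference of Igfbp2 minus Igf1 was -1.46, -2.05, -2.13 and -1.24 on the wild-type arrays, against -1.43, -1.65, -0.99 and -0.57 on the heterozygous ones. The last 2 heterozygous replicates lay above all wild-type arrays and the first 2 among them. The genotypes differed by 0.56 (exact permutation test, two-sided, p = 0.143, adjusted p = 0.286 over 2 comparisons), higher in heterozygous liver. For Igfbp3 minus Igf1 the difference between genotypes was -0.13 (exact permutation test, two-sided, p = 0.514, adjusted p = 0.514). Igfbp1 was not set against Igf1, because its probe was not tested.

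Relations over the 8 arrays were computed for the 21 pairs of the 7 tested genes, using the brightest tested probe of each. None passed an adjusted p under 0.05, and 3 of 21 had an unadjusted exact permutation p under 0.05. Igf1 and Igfals, both growth hormone dependent, gave the highest value, Pearson's r = 0.83 (exact permutation p = 0.0108, adjusted p = 0.212) and Spearman's rho = 0.75 (exact permutation p = 0.038, adjusted p = 0.446). Without heterozygous replicates 3 and 4, the lowest and the highest for Igf1, r was 0.46. Leaving out both ends of the range tends to lower r, so this cannot show that the relation rested on them. With 1 array left out r ranged from 0.64 (without heterozygous replicate 4) to 0.91 (without wild-type replicate 4). In the deposited processed intensities it was 0.86 (exact permutation adjusted p = 0.0651). Igfbp4 ran the other way, with r = -0.76 against Igf1 (exact permutation p = 0.0282, adjusted p = 0.212; rho = -0.67, exact permutation p = 0.0757) and r = -0.77 against Igfals (exact permutation p = 0.0303, adjusted p = 0.212; rho = -0.58, exact permutation p = 0.135). Without heterozygous replicates 3 and 4 these were -0.15 and -0.07, with the same limit. With 1 array left out they ranged from -0.86 to -0.49 and from -0.84 to -0.47. In the deposited processed intensities they were -0.86 and -0.85 (exact permutation adjusted p = 0.0651 and 0.0957).

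**Figure D2:**
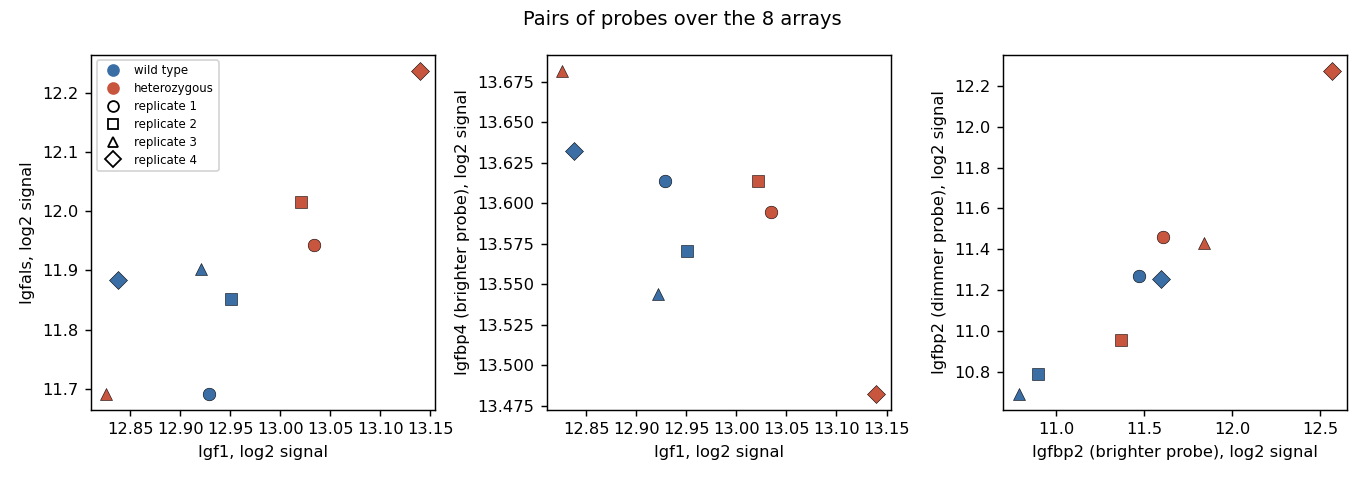
Log2 signals of Igfals against Igf1 (left), of the brighter Igfbp4 probe against Igf1 (middle) and of the dimmer against the brighter Igfbp2 probe (right), 1 point per array. Heterozygous replicates 3 and 4 sit at the ends of the first 2 panels, whose r of 0.83 and -0.76 became 0.46 and -0.15 without them, while the Igfbp2 probes follow a line over all arrays.

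Igfbp3 and Igfbp7, both known from nonparenchymal cells, gave r = 0.70 (exact permutation p = 0.0507, adjusted p = 0.266) and rho = 0.69 (exact permutation p = 0.0694, adjusted p = 0.446), and r = 0.79 without the 2 arrays farthest from the median of Igfbp3. On deviations from the group means, which remove the genotype difference, the smallest p belonged to Igfals and Igfbp7 (r = -0.86, exact permutation within groups p = 0.0052, adjusted p = 0.109). Within 1 genotype there are 4 arrays, too few for a correlation. Over all 8 arrays Igfbp2 followed none of the other members closely, with r between -0.46 and 0.45. With Igfbp4 this depended on the arrays used: r was -0.17 over all 8 and 0.83 without heterozygous replicate 4 and wild-type replicate 3. Without those arrays r was -0.38 with Igfbp3, 0.25 with Igfbp7 and 0.28 with Igf2r.

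**Figure D3:**
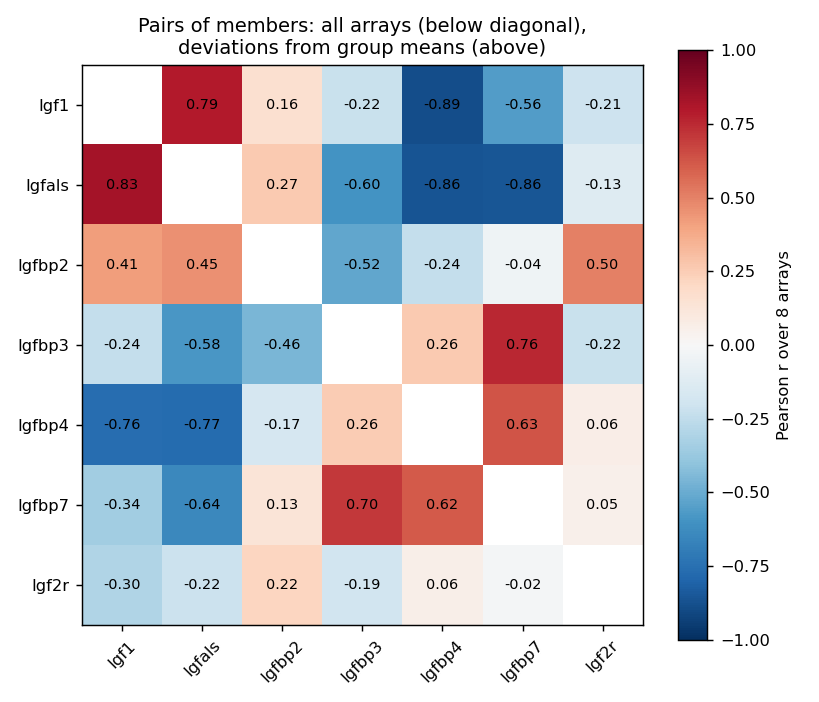
Pearson's r over the 8 arrays for each pair of the 7 tested genes, on the log2 signals below the diagonal and on deviations from the group means above it. Below the diagonal the strongest cells join Igf1 with Igfals (0.83) and set Igfbp4 against both (-0.76 and -0.77), and above it they set Igfbp4 against Igf1 (-0.89) and Igfals (-0.86) and Igfbp7 against Igfals (-0.86); none passed after adjustment.

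Each tested member was also set against 8 partner genes for growth hormone response, fasting and clock time, 56 pairs in all, and none passed (the lowest adjusted p, 0.596, was shared by several pairs, and 2 pairs had an unadjusted exact permutation p under 0.05). The smallest p was that of Igf1 against Dbp, a clock output gene, with r = -0.80 (exact permutation p = 0.0152) and rho = -0.76 (exact permutation p = 0.0368). With median scaling this r was -0.93 (exact permutation adjusted p = 0.142), and with 1 array left out it ranged from -0.91 to -0.54. Without heterozygous replicates 3 and 4 it was -0.40. Dbp read 8.31 on heterozygous replicate 4 and 10.35 to 11.79 on the other arrays on the log2 scale. Igfbp4 against Dbp gave r = 0.75 (exact permutation p = 0.0388; rho = 0.66, exact permutation p = 0.0839), and 0.06 without heterozygous replicates 3 and 4. With 1 array left out this r ranged from 0.33 to 0.91. Igfbp2 against Irs2, an insulin receptor substrate induced in fasting, gave r = 0.63 (exact permutation p = 0.0894; rho = 0.64, exact permutation p = 0.0962), and 0.34 without the 2 arrays farthest from the median of Igfbp2. It passed in 1 setting, without heterozygous replicate 2 (r = 0.94, adjusted exact permutation p = 0.0111), while on deviations from the group means r was 0.22. With the growth hormone partners Ghr, Socs2 and Cish, r was -0.10, -0.09 and -0.04 for Igf1. For Igfals these values were 0.29, 0.01 and 0.03. Without heterozygous replicates 3 and 4 they were -0.25, 0.31 and -0.40 for Igf1, and 0.51, 0.63 and -0.20 for Igfals.

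The rest of the axis was described from lists of pathway genes. Of 7 IGF ligands and receptors, 2 were tested, and these were Igf1 and Igf2r. The probes of Igf2, silent in adult mouse liver, of Igf1r, little expressed by hepatocytes, and of Insr, Ins2 and Insrr did not pass the detection filter. Failing the filter does not show that a transcript is absent, since the probe of the hepatocyte marker Alb failed too. Of 14 other binding proteins, proteases and relatives 5 were tested, 0 passed and 5 of 5 were above 0, with a median log2 fold change of 0.20. Of all tested probes 51.9% were above 0. The probes of Ctsd and Htra1 were dim, with wild-type means of 5.73 and 5.14 on the log2 scale. Igfbp5, a further ternary carrier, had 0.20 ± 0.13 (SE; limma adjusted p = 0.597), the lysosomal protease gene Ctsd 0.21, and the secreted protease gene Htra1, whose product cleaves binding proteins, 0.12. Their sizes were not stable, from 0.11 to 0.29 for Igfbp5, 0.0724 to 0.296 for Ctsd and 0.0333 to 0.235 for Htra1 over the alternatives.

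Of 15 growth hormone signalling genes 9 were tested and 0 passed, 4 above and 5 below 0, with a median of -0.04. Ghr, the receptor, read 12.48 in wild type and 12.44 in heterozygous liver on the log2 scale, and the kinase gene Jak2 had a log2 fold change of -0.13. The STAT5 feedback gene Cish read 8.90, 9.13, 10.18 and 10.66 on the wild-type arrays, against 10.87, 6.54, 5.96 and 7.93 on the heterozygous ones, giving a log2 change of -1.89 ± 0.89 (SE; limma adjusted p = 0.468). Its values spread over several log2 units among heterozygous mice while Igf1 stayed within 0.31. The feedback genes Socs3 and Socs2 had -0.89 (limma adjusted p = 0.397) and 0.33 (limma adjusted p = 0.663).

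Of 30 genes of insulin and IGF signal transduction 21 were tested and 0 passed, 12 above and 9 below 0, with a median of 0.04. Irs2 read 5.01, 4.90, 4.63 and 5.27 on the wild-type arrays, against 5.53, 6.23, 5.53 and 5.84 on the heterozygous ones. The 4 heterozygous arrays lay above all wild-type arrays, and the log2 change was 0.83 ± 0.17 (SE; limma adjusted p = 0.204). Irs2 was the only 1 of the 21 tested genes without overlap, where 6.25% of all tested probes had none. The probe was dim and the size depended on the background step, with 0.25 without background correction, 0.46 at an offset of 50 and 1.17 in the processed table. The kinase gene Gsk3a and the translation repressor gene Eif4ebp2 had -0.39 and -0.27 (limma adjusted p = 0.391 and 0.488). Of 19 insulin-repressed and fasting-induced genes 14 were tested and 0 passed, 7 on each side of 0, with a median of 0.03. Within it G6pc, which releases glucose, had 0.96 ± 0.27 (SE; limma adjusted p = 0.309), the gluconeogenic gene Pck1 0.49, and the fatty acid sensor gene Ppara -0.40.

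By likeness of pattern, measured as Pearson's r of deviations from the group means over the 8 arrays among 7959 other genes, the genes closest to Igf1 were Agrn (0.98), Exosc7 (0.98) and Lrfn3 (0.97). Those closest to Igfbp2 were Rps4x (0.98), Gamt (0.98) and Pglyrp1 (0.98). On the log2 signals themselves, r with Igf1 was 0.69 for Agrn, 0.41 for Exosc7 and 0.84 for Lrfn3. In the same way r with Igfbp2 was 0.95 for Rps4x, 0.97 for Gamt and 0.68 for Pglyrp1. With 8 arrays and this many genes, the values on deviations are the top of a long list, and they are given as a description with no p.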

How the data were processed

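Liver RNA was profiled on 1 Illumina bead array per mouse. The authors deposited, per the file headers, non-normalized signal intensity and a detection p-value for each probe, and, per the submitters' processing notes, GenomeStudio 2011.1 was used. A second deposited table of processed intensity, whose normalization is not given in the sources used here, served as an alternative. Gene symbols came from the platform annotation held by GEO (1 symbol for 23978 probes, several for 0, none for 1719).

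Here background was corrected with nec (limma 3.58.1, R 4.3.3; offset 16), arrays were quantile normalized and values taken as log2. The offset compresses dim signals, so the size of their fold changes depends on the background step. The 11412 probes detected (p under 0.05) on at least 4 of 8 arrays were fitted with lmFit and eBayes, two-sided, and adjusted by Benjamini-Hochberg. The fit and the permutation tests, but not the background, normalization or filter steps, were run on simulated independent normal values. In the fit 39 of 67 changes of 0.5 on the log2 scale were called, 62 of 67 of 1 and 66 of 66 of 2, with 6 false calls. Intervals are at 95%. No batch or chip is named, so none could be tested, and the number of arrays limits the precision.

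Correlations used exact permutations of the 8 arrays. Brightest means highest mean log2 signal among tested probes. In pathway lists the 3 genes with the smallest unadjusted p were named, with Pck1, Ghr and Socs2 as partners. The members and lists were chosen with earlier results of these data known. Cish values, Dbp values, the pairs with the smallest p and Igfbp2 with Irs2 were picked out after their values were seen. Alternatives were other background, offset, scaling, filter, prior, weights, a replicate block, the processed table and leaving out arrays.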

Additional observations from a re-analysis of the deposited data

How the results depend on the processing

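Of 610 values recomputed under alternatives for 38 results, 586 kept their direction and their side of the threshold, 11 changed sign, 12 counts moved by over 1.5 times and 1 correlation newly passed (Igfbp2 with Irs2). No member probe passed the threshold in any of the 18 settings tried, an adjusted p under 0.10 among them. The count over all tested probes, 1, was 0 without background correction, 0 without the filter and 0 with the replicate block, and ranged from 0 to 7 with an array left out: 0 without wild-type replicate 4 or heterozygous replicate 3, 2 without heterozygous replicate 2 and 7 without heterozygous replicate 1. Member probes without overlap numbered 0 with median scaling and 1 to 3 with an array left out, adding the dimmer Igfbp4 probe without wild-type replicate 4, both Igfbp2 probes without heterozygous replicate 2, and Igf1 and Igfals without heterozygous replicate 3. With fewer arrays lack of overlap arises more easily for any probe. The share of all tested probes was not computed in these settings, so the added probes are not read as a result about the members. Partner pairs past the threshold ranged from 0 to 1. The brighter Igfbp4 probe changed sign with median scaling (-0.0572) and with the processed table (-0.0265), and Igfbp7 with median scaling (-0.0052). With an array left out, log2 fold changes ranged from -0.162 to 0.0589 for Igfbp3, -0.0264 to 0.0420 for the brighter Igfbp4 probe, -0.0083 to 0.0848 for Igfbp7 and -0.0754 to 0.0174 for the brighter Igf2r probe; the cause was not tested. For Igfbp2 they ranged from 0.42 to 0.82 (brighter) and 0.28 to 0.72 (dimmer), with adjusted p between 0.255 and 0.724 over all alternatives. Without background correction the log2 fold changes shrank to -0.38 for Socs3, -0.20 for Gsk3a, -0.10 for Eif4ebp2, -0.19 for Ppara, -0.0818 for Jak2 and 0.28 for Pck1.

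Deviations of same-numbered arrays correlated at -0.07, 0.13, 0.10 and 0.08, and 2 of 4 wild-type arrays correlated best with their own number. With so few arrays these values cannot decide whether the numbers pair the mice. The numbers are not said to mark a litter or day, so they were not taken as pairs. The replicate block gave 0 called probes in place of 1. No block for the BeadChip was fitted, since the sources used here name none. The Igfbp1 probe, detected on 3 of 8 arrays, limits what can be said of it.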
